A study of Mus musculus with 3 samples.

Results

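In embryonic mouse mammary cells, 8 genes that carry a Wnt signal from the cytoplasm to DNA were followed: beta-catenin (Ctnnb1), the Tcf/Lef transcription factors Lef1, Tcf7l1 and Tcf7l2, the destruction complex genes Apc, Axin1 and Gsk3b, and the co-activator gene Bcl9. They were chosen by name, through every probe set annotated with 1 of these symbols and no other, which gave 8 of 17097 measured genes and 22 of 28898 probe sets with a single symbol. RNA came from cells of Lgr5-IRES-GFP female embryos at embryonic day 14, sorted for high CD49f (integrin alpha 6) and high Lgr5 reporter signal after digestion of epidermis together with mammary gland. There was 1 group with 3 Affymetrix arrays, each holding the female embryos of a single litter as a pool, and no control group. The reporter allele was carried in all samples, no agent was given, and the sort relied on CD49f and the Lgr5 reporter, both of which mark cells beyond the mammary bud. The sorted number was 813 or 2000 cells, and the labels do not assign these numbers to replicates.

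Beta-catenin has separate roles at cell junctions, where it ties cadherins to alpha-catenin, and in the nucleus, where it is the co-activator of Tcf/Lef factors. Without a Wnt ligand, a complex built on the scaffolds Axin and Apc brings it to the kinase Gsk3, and the phosphorylated protein is ubiquitinated and degraded. With a Wnt ligand that complex is blocked, beta-catenin accumulates, and at Tcf/Lef sites it recruits Bcl9 and Pygopus and displaces repressors of the Groucho/Tle family. Mammary placodes need this signalling, and Lef1 is required for mammary buds to persist in the mouse. Control of the pathway lies largely in protein stability, which RNA levels do not measure.

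Tcf/Lef factors bind a short core in DNA, which was searched for in the 250 bases before each listed RefSeq transcription start of 6 of the 8 genes. RefSeq (GRCm38.p6) gave 11 promoter windows for Bcl9, Lef1, Tcf7l1, Ctnnb1, Gsk3b and Tcf7l2, and Apc and Axin1 were not searched here. The letters searched were CTTTGAA or CTTTGAT or CTTTGTA or CTTTGTT, on both strands. These forms share the letters CTTTG, so a position counts under a single form. Of the 11 windows 2 held a match (18.2%), against 14.8% of all 32851 windows, so the share was near that of promoters at large. The matches lay before a downstream start, 1 in Lef1 and 1 in Tcf7l2, and these stretches are shown because they were the only matches found. Capitals mark the match, which in Lef1 is the reverse complement of CTTTGTA at 147 to 141 bases before the start (chr3:131156117-131156183, plus strand) and in Tcf7l2 is CTTTGTT at 14 to 8 bases before the start (chr19:55895277-55895320, plus strand). The stretch just before the first listed Lef1 start (chr3:131110230-131110296, plus strand) is given for comparison and holds no match. The arrays do not tell which start was used, and a match of letters is no evidence of binding.
Lef1 downstream start: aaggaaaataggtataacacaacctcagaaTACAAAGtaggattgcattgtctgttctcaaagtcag
Tcf7l2 downstream start: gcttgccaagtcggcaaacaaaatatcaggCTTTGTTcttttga
Lef1 first start: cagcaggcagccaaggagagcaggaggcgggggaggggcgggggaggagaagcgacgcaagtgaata

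With no control samples, each gene was set against 74 olfactory and vomeronasal receptor genes, whose 95th percentile was the background threshold of an array. The thresholds of replicates 1, 2 and 3 were 6.14, 6.17 and 5.99 (log2). A gene was represented by its brightest probe set and called above background at an adjusted p under 0.05 (limma, one-sided, Benjamini-Hochberg over all genes). By this rule 55.1% of all genes and, fitted separately, 49.2% of all probe sets were called. A stricter threshold from 50 genes of unrelated tissues called 24.7% of genes and 19.5% of probe sets. Replicate 3 stood apart, with a median log2 value of 6.52 against 6.25 on both other arrays. Levels are given per probe set and are not ranked between genes, because probe sets bind with different strength. In such pools, fewer cells of a type and less RNA per cell cannot be told apart.

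All 8 genes were above background (55.1% of all genes), and all 8 stayed so with the tissue-restricted threshold (24.7% of all genes). Their median distance from the receptor threshold was 3.53 on the log2 scale, beside 0.78 over all genes and 2.06 over the genes called. Taking the brightest probe set favours genes with several, and 7 of the 8 had more than 1, beside 7180 of 17097 genes. The distances lay between 3.03 and 5.58. Probe by probe the picture was less even: 18 of the 22 probe sets were called (49.2% of all probe sets), and the 4 that were not belonged to Apc, Tcf7l2 and Bcl9.

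**Figure D1:**
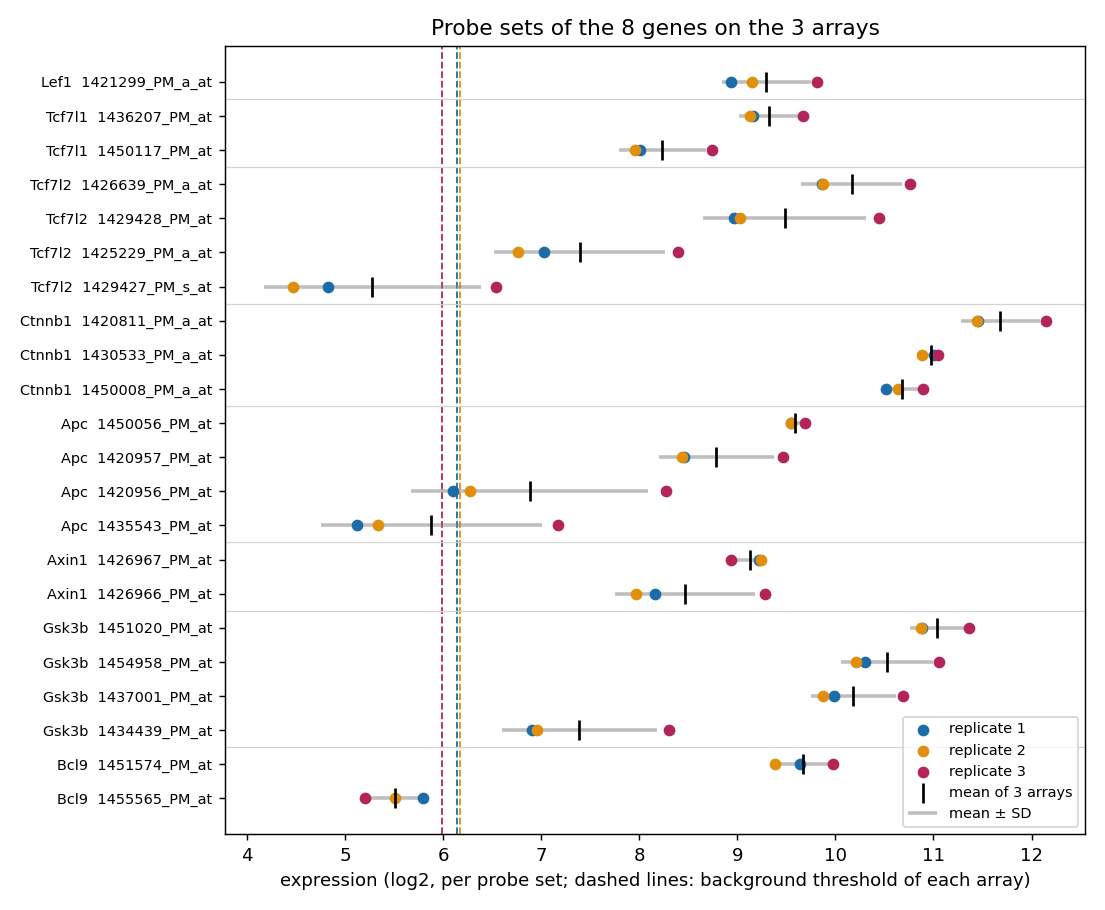
Log2 expression (horizontal axis) of the 22 probe sets of the 8 genes; coloured points are the 3 arrays, black ticks the mean, grey bars ± SD (n = 3), and dashed lines the background threshold of each array. Replicate 3 is the rightmost point in 20 of the 22 rows, and the lowest probe sets of Tcf7l2, Apc and Bcl9 lie around or below the dashed lines.

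Lef1, the Tcf/Lef factor tied most closely to mammary bud survival, was read by a single probe set, which gave 8.93 on replicate 1, 9.15 on replicate 2 and 9.81 on replicate 3 (log2, the order used from here on). The value of replicate 3 was the highest, and every array lay well above its own threshold. The mean was 9.30 ± 0.46 (SD, n = 3), which was 3.20 ± 0.25 (SE) above the threshold (limma adjusted p = 0.000156). Measured against tissue-restricted genes it stood 1.68 above (adjusted p = 0.00450).

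Tcf7l1, known also as Tcf3 and mainly a repressor in skin progenitors, was read by 2 probe sets. The brighter gave 9.16, 9.13 and 9.67, a mean of 9.32 ± 0.30 (SD, n = 3) and a distance of 3.22 ± 0.21 (SE) from the threshold (limma adjusted p = 8.93e-05). The other gave 8.01, 7.95 and 8.75 and was also called (adjusted p = 0.000935 among probe sets). Its mean lay 0.62 above the tissue-restricted threshold, and the test did not call it there (adjusted p = 0.154). Both probe sets had the same order of arrays, with replicate 3 highest and replicates 1 and 2 nearly level.

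Tcf7l2, known also as Tcf4 and the main Tcf of intestinal crypts, was read by 4 probe sets that differed widely. The brightest (1426639_PM_a_at) gave 9.87, 9.87 and 10.76, with a mean of 10.17 ± 0.52 (SD, n = 3), 4.07 ± 0.26 (SE) above the threshold (limma adjusted p = 8.91e-05). The next (1429428_PM_at) gave 8.97, 9.03 and 10.44 and was called as well (adjusted p = 0.000756). Another (1425229_PM_a_at) had 7.02, 6.76 and 8.39, above the receptor threshold on each array (adjusted p = 0.0256), while its mean distance from the tissue-restricted threshold was -0.22. The lowest (1429427_PM_s_at) had 4.82, 4.47 and 6.54, above the threshold on replicate 3 alone, and was not called. Its suffix marks probes shared by several transcripts. With the mean of the 4 in place of the brightest, Tcf7l2 stood 2.20 above the threshold and was still called (adjusted p = 0.00256). Tcf7l2 RNA is spliced into many forms, and the array annotation used here does not say which of them each probe set reads.

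Ctnnb1, the gene of beta-catenin, was read by 3 probe sets. Its brightest probe set (1420811_PM_a_at) gave 11.45, 11.44 and 12.15, a mean of 11.68 ± 0.41 (SD, n = 3) and a distance of 5.58 ± 0.21 (SE; limma adjusted p = 2.54e-05). The others gave 11.01, 10.88 and 11.04 (1430533_PM_a_at) and 10.52, 10.64 and 10.89 (1450008_PM_a_at). These 3 probe sets spanned 1.00 between the highest and the lowest mean, and all were called under both thresholds. Lef1, with its single probe set, was the other gene of the 8 for which this held.

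The kinase gene Gsk3b, which phosphorylates beta-catenin for degradation, was read by 4 probe sets, all called. The brightest (1451020_PM_at) gave 10.88, 10.88 and 11.36, with a mean of 11.04 ± 0.28 (SD, n = 3), 4.94 ± 0.18 (SE) above the threshold (limma adjusted p = 2.42e-05). A pair of others ran parallel, at 10.31, 10.21 and 11.06 for one and 9.99, 9.88 and 10.69 for the other. The fourth (1434439_PM_at) was far lower, at 6.91, 6.95 and 8.30 (adjusted p = 0.0201), with a mean distance of -0.23 from the tissue-restricted threshold. Replicate 3 was the highest array for each of the 4.

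Apc, the scaffold that helps present beta-catenin to the kinases and is lost in many colorectal tumours, was read by 4 probe sets that disagreed. The brightest (1450056_PM_at) was nearly constant, at 9.54, 9.54 and 9.69, with a mean of 9.59 ± 0.08 (SD, n = 3), 3.49 ± 0.16 (SE) above the threshold (limma adjusted p = 3.66e-05). That SD of 0.08 was the smallest of the 22. A second (1420957_PM_at) gave 8.46, 8.44 and 9.46 and was called (adjusted p = 0.000733). Another (1420956_PM_at) gave 6.10, 6.27 and 8.27, so that replicates 1 and 2 lay close to the threshold and replicate 3 far above it, and the test did not call it (adjusted p = 0.175). The lowest (1435543_PM_at) gave 5.12, 5.34 and 7.18, above the threshold on replicate 3 alone, and was not called either. The mean of all 4 put Apc 1.90 above the threshold (adjusted p = 0.00326), beside 3.49 with the brightest.

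Axin1, the scaffold on which the complex assembles, was read by 2 probe sets that placed replicate 3 on opposite sides of the other litters. The brighter (1426967_PM_at) gave 9.22, 9.24 and 8.94, lowest on replicate 3, and the other (1426966_PM_at) gave 8.16, 7.97 and 9.29, highest on replicate 3. The first had a mean of 9.13 ± 0.17 (SD, n = 3), 3.03 ± 0.15 (SE) above the threshold (limma adjusted p = 4.55e-05). The second was called too (adjusted p = 0.00182) but not against tissue-restricted genes (adjusted p = 0.128). The 2 probe sets thus gave no common order of the litters.

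Bcl9, whose product bridges beta-catenin to Pygopus, had 9.64, 9.38 and 9.98 from its brighter probe set (1451574_PM_at). The mean of 9.67 ± 0.30 (SD, n = 3) was 3.57 ± 0.20 (SE) above the threshold (limma adjusted p = 6.34e-05). The other (1455565_PM_at) gave 5.80, 5.51 and 5.20, below the threshold on every array and lowest on replicate 3, where the brighter one was highest. The 2 means differed by 4.16, and their average put Bcl9 1.70 above the threshold (adjusted p = 0.000250).

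Across litters, replicates 1 and 2 were close and replicate 3 was higher. Over the 22 probe sets the median absolute difference between replicates 1 and 2 was 0.11, as it was over the 18529 probe sets of called genes (0.11), and the largest was 0.35. Replicate 3 minus the mean of the other arrays had a median of 0.77 over the 22, with 20 of 22 above 0, while the probe sets of called genes had a median of 0.30 with 70.7% above 0. Of the 22, 18 lay above that general median and 4 above the 95th percentile of 1.45. These 4 were a pair each from Apc (2.09 and 1.95) and Tcf7l2 (1.89 and 1.50). When the arrays were quantile normalized again, the median over the 22 fell to 0.39 and that of the probe sets of called genes to -0.05. Then 17 of 22 were above 0, beside 46.2% of the probe sets of called genes. Each litter was on 1 array, so no test was made, and litter, number of sorted cells and processing cannot be told apart. Control probe sets at the 5′ and 3′ ends of Actb differed by 0.56, 0.56 and 0.40 on replicates 1, 2 and 3, and those of Gapdh by 0.06, 0.08 and -0.03. Whether transcript coverage had a part in the higher values of replicate 3 was not tested.

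**Figure D2:**
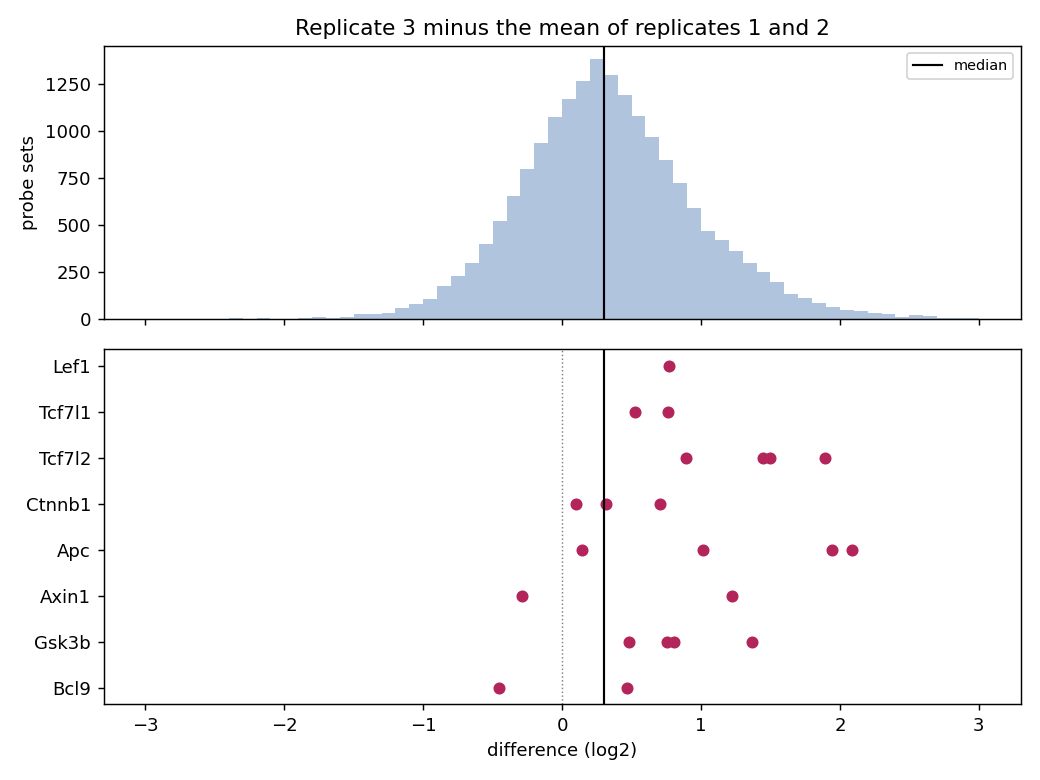
Log2 difference between replicate 3 and the mean of replicates 1 and 2 (horizontal axis): histogram over the 18529 probe sets of called genes above, and 1 point per probe set of the 8 genes below, with the black line at the general median of 0.30. All 4 Tcf7l2 probe sets, both of Tcf7l1 and all 4 of Gsk3b lie to the right of the line, and Axin1 and Bcl9 have points on both sides of 0.

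The higher values of replicate 3 were uneven within a gene. For 5 of the 7 genes with more than 1 probe set (Tcf7l1, Tcf7l2, Apc, Axin1 and Gsk3b), the probe set with the lowest mean gained more on replicate 3 than the one with the highest. In Apc the lowest gained 1.95 and the highest 0.14. In Tcf7l2 the gains were 1.89 and 0.89, and in Gsk3b 1.37 and 0.48. Ctnnb1 (0.31 for the lowest and 0.70 for the highest) and Bcl9 (-0.45 and 0.47) ran the other way. Among 5202 called genes with more than 1 probe set, the lowest gained more in 57.8%. The median span between highest and lowest probe set was 3.65 for the 7 genes and 1.86 for those 5202. Calls on both sides of the rule were seen in 3 of the 7 (42.9%), beside 56.0% of the 5202.

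**Figure D3:**
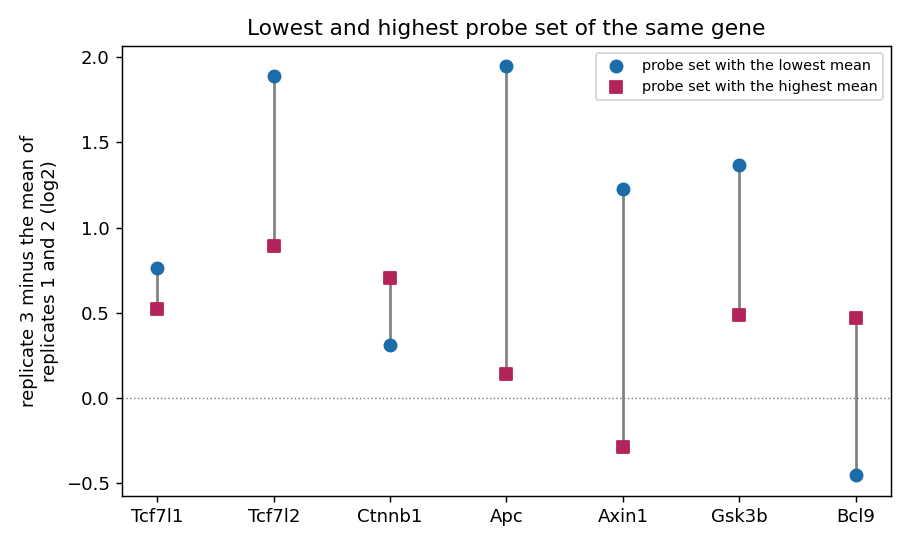
Replicate 3 minus the mean of replicates 1 and 2 (log2, vertical axis) for the lowest (circles) and highest (squares) probe set of each gene with more than 1. The circle lies above the square for Tcf7l1, Tcf7l2, Apc, Axin1 and Gsk3b and below it for Ctnnb1 and Bcl9.

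The rest of the destruction machinery was detected throughout: 25 of 25 measured genes were above background, beside 55.1% of all genes, with a median distance of 2.85 from the threshold. Axin2, the feedback paralogue of Axin1, gave 9.33, 8.93 and 8.41 (8.89 ± 0.46, SD, n = 3; limma adjusted p = 0.000132) and was lowest on replicate 3. Gsk3a, the second Gsk3 kinase, stood at 8.79 ± 0.34, and Csnk1a1, the priming kinase of beta-catenin, at 10.56 ± 0.43. Apc2, a paralogue of Apc, stood at 7.51 ± 0.28 and was not called against tissue-restricted genes, a threshold that 17 of the 25 passed (24.7% of all genes).

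Co-activators that work with beta-catenin were above background in 17 of 18 cases (55.1% of all genes), with a median distance of 3.21. Bcl9l, the paralogue of Bcl9, gave 10.29, 10.19 and 9.89 (10.13 ± 0.21, SD, n = 3; limma adjusted p = 2.26e-05), and the Pygopus gene Pygo2 stood at 9.38 ± 0.12. The acetyltransferase gene Crebbp stood at 11.39 ± 0.19 and the Paf1 complex gene Ctr9 at 9.11 ± 0.12. Cdc73, another gene of that complex, had 6.20, 6.41 and 7.61 and was the one not called (adjusted p = 0.106). With the stricter threshold 13 of the 18 were called (24.7% of all genes).

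Repressors and inhibitors of the beta-catenin/Tcf complex were detected in the same pools, in 19 of 21 cases (55.1% of all genes), with a median distance of 2.66. The Groucho-type co-repressor genes Tle1 (7.44 ± 0.30), Tle2 (8.27 ± 0.51), Tle3 (9.21 ± 0.21) and Tle4 (8.56 ± 0.77, SD, n = 3) were all above background. Against tissue-restricted genes Tle3 was called and Tle1, Tle2 and Tle4 were not, and 12 of the 21 passed in all (24.7% of all genes). Sox17 (4.78 ± 0.14) and Sox7 (5.67 ± 0.12), endodermal and endothelial factors that can antagonise beta-catenin, were the 2 not called.

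At the membrane, 10 of 12 cadherin and catenin partners were above background (55.1% of all genes), with a median distance of 1.80. The stricter threshold was passed by 5 of the 12 (24.7% of all genes). The P-cadherin gene Cdh3 gave 9.50, 9.47 and 9.60 (9.52 ± 0.07, SD, n = 3), and the alpha-catenin gene Ctnna1 stood at 10.21 ± 0.12. The E-cadherin gene Cdh1 had 7.02, 7.62 and 8.36 (limma adjusted p = 0.00473) and the N-cadherin gene Cdh2 7.96, 7.30 and 8.18 (adjusted p = 0.00135), neither of which was called against tissue-restricted genes. Ctnna2 (6.14 ± 0.57) and Ctnna3 (5.06 ± 0.18), the neural and muscle alpha-catenins, were not called.

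Of 22 Tcf/Lef target genes 20 were above background (55.1% of all genes), with a median distance of 2.18. The stricter threshold was passed by 10 of the 22 (24.7% of all genes). The list includes Axin2, given above, and Lgr5, on whose reporter the sort was based. The feedback genes Nkd1 (9.26 ± 0.20) and Nkd2 (8.59 ± 0.07, SD, n = 3) were called under both thresholds, and Dkk1 (6.51 ± 0.23) under the receptor threshold alone (limma adjusted p = 0.0272). Fgf20 (5.95 ± 0.49) and Bambi (6.07, 6.22 and 7.31) were not called. Replicate 3 lay above the mean of the other arrays for 12 of the 22 target genes (median difference 0.11). The same held for 7 of the 8 genes of the transduction core (median 0.50). Over called genes replicate 3 lay above that mean for 6297 of 9426, with a median of 0.24. The difference between these groups was not tested.

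**Figure D4:**
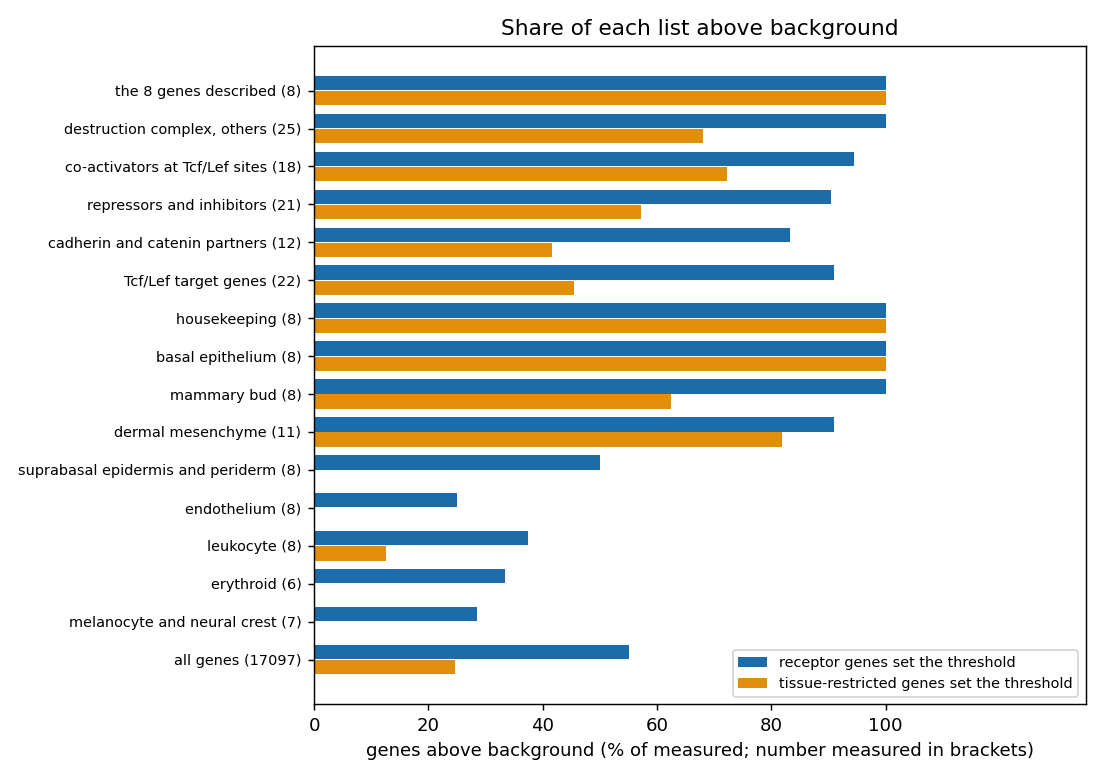
Share of the measured genes of each list above background (horizontal axis, %), with the receptor threshold (blue) and the tissue-restricted threshold (orange); numbers in brackets are genes measured. All 8 genes described pass both, as do the 8 housekeeping and 8 basal epithelial genes, while all genes together reach 55.1% and 24.7%.

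Markers of the sorted cells and of other cell types were read on the same arrays. Of all genes 55.1% were above background there, and 24.7% with the tissue-restricted threshold. Basal epithelial genes (8 of 8, such as Krt5 at 12.15 ± 0.16 and Krt14 at 11.38 ± 0.25, SD, n = 3) and mammary bud genes (8 of 8, such as Tbx3 at 9.90 ± 0.21 and Lgr5 at 10.27 ± 0.44) were above background, as were housekeeping genes (8 of 8, such as Actb at 13.35 ± 0.09, Gapdh at 12.88 ± 0.15, Hprt at 9.00 ± 0.50 and Ppia at 11.93 ± 0.08). The basal list holds Itga6, the gene of CD49f, and the mammary bud list holds Lgr5, so the sort itself favoured these genes. Dermal mesenchyme genes were above background in 10 of 11 cases, with distances from -1.21 to 6.88. Pdgfrb stood at 8.84 ± 0.20, Col1a1 at 12.99 and Dcn at 11.43 (the last 2 named after their values were seen), while Pdgfra, at 4.89 ± 0.55, was not called. Lef1, Ctnnb1 and the other core genes are also expressed in mesenchyme, and the part of such cells in the values above was not tested. The log2 of the summed signal of the mesenchyme list, in which the brightest genes weigh most, was 14.69, 14.58 and 14.47. On replicate 3, 3 of its 11 genes lay above their mean on the other arrays. For the basal list the log2 of the sum was 13.51, 13.83 and 13.99, with 7 of 8 genes above that mean on replicate 3. Among all called genes 6297 of 9426 were above it there. Whether these sums bear on the values of the core genes was not tested. Endothelial (2 of 8, with Pecam1 at 7.63 ± 1.01 and Cdh5 at 5.81 ± 0.27), leukocyte (3 of 8, with Cd68 at 8.83 ± 0.26 and Ptprc at 4.03 ± 0.20), erythroid (2 of 6, with Hbb-y at 5.42 ± 0.19 and Hba-x at 5.48 ± 0.01), melanocyte and neural crest (2 of 7, with Sox10 at 8.02 ± 0.22 and Pmel at 7.33 ± 0.26) and suprabasal or periderm lists (4 of 8, with Krt1 at 6.66 ± 0.34 and Krt10 at 7.94 ± 1.14) had lower shares above background. The suprabasal share, at 50%, was near that of all genes. With the tissue-restricted threshold the basal and housekeeping lists stayed at 8 of 8, and the mammary bud list went to 5 of 8 (Gata3, Msx2 and Wnt10b were no longer called). The mesenchyme list went to 9 of 11 and the leukocyte list to 1 of 8. The endothelial, erythroid, melanocyte and suprabasal lists went to 0 in limma (also 0 at an unadjusted p under 0.05), from 2, 2, 2 and 4 with the receptor threshold. Some values still passed the tissue-restricted threshold (7.75, 7.64 and 7.45). Sox10 did so on each array, at 7.98, 7.82 and 8.26. Pecam1 (8.12, 8.30 and 6.47), Klf1 (8.56, 8.66 and 7.22) and Krt4 (8.96, 8.26 and 5.50) did so on replicates 1 and 2 alone. Krt10 (6.94, 7.70 and 9.18) did so on replicates 2 and 3, and Pmel (7.16, 7.21 and 7.63) on replicate 3 alone. Klf1 of the erythroid and Krt4 of the suprabasal list were named after their values were seen. A count of 0 thus does not show that a cell type was absent.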

How the data were processed

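RNA of 3 litter pools of 1 group was measured on 3 arrays. Each deposited value is the log2 expression of 1 probe set; RMA and the affy package are named, without versions or settings, per the submitters' processing notes. RMA compresses differences of weak probe sets. Whether the arrays were normalized together, and the genome build, are not given in the sources used here. Per the labels' protocols, cDNA was amplified for 25 cycles, which can favour parts of a transcript. A platform annotation gave 28898 of 45141 probe sets 1 symbol and 551 several; 15588 had none and 104 were controls.

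After subtraction of the array threshold, limma 3.58.1 (R 4.3.3) asked for each gene whether the mean exceeded 0 (intercept, empirical Bayes with a trend, one-sided, Benjamini-Hochberg), over 17097 genes and separately over 28898 probe sets. The p-values rest on the spread of 3 arrays and treat the thresholds as known. Precision is limited by the number of arrays. The fit was tested on simulated data with known levels and independent noise for each gene. The simulation held no choice of the brightest probe set and no shift of a whole array, so it does not test these. Python 3.11.15 was used for the rest.

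The 8 genes and the lists were chosen with earlier results of these data known. In each pathway list the first 4 genes called and the first 3 not called were named, and in each marker list the first 2. Some list members were not analysed here.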

Additional observations from a re-analysis of the deposited data

How the results depend on the processing

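All 8 genes kept their call in each of the 13 alternative settings, which were other thresholds, averaged probe sets, no cross-hybridising probe sets, no variance trend, other normalizations, a filter on low values and the loss of each replicate in turn. Not all of these settings could have removed a call. Centring moves values and threshold by the same amount, and the 90th percentile of receptor genes only loosens the rule. The cross-hybridising probe sets left out (suffix _x_at) included none of the 8 genes, so only the threshold moved slightly. With a replicate left out, the limma adjusted p of each of the 8 genes became smaller. For Lef1 without replicate 3 it went from 0.000156 to 6.02e-10, although the distance fell from 3.20 to 2.88. Keeping a call there was thus a weak check. Over all genes 9080, 9141 and 9997 were called without replicates 1, 2 and 3. The highest limma adjusted p among the 13 settings was 0.00450, for Lef1 with tissue-restricted genes as background. The count of called probe sets of the 8 genes ranged from 14 to 19. It was 14 with that background, which called 19.5% of all probe sets, and 19 without replicate 1 or replicate 2. The count over all genes was 9426 and became 4225 with the threshold of tissue-restricted genes and 5399 when the brightest antigenomic control set it. With tissue-restricted genes the repressors fell to 12, the membrane partners to 5 and the target genes to 10. With the antigenomic control the membrane partners fell to 5 and the target genes to 12. The other counts of the pathway and housekeeping lists stayed within 1.5 times their value under the 13 settings, and the marker lists were counted with the receptor and tissue-restricted thresholds alone. When probe sets were averaged, the distances of Tcf7l2 (2.20), Apc (1.90) and Bcl9 (1.70) shrank most. The median difference of replicate 3 over the 22 probe sets was 0.77, and 0.39 after quantile normalization or 0.49 after centring. No paired analysis was possible because there is 1 group. Probe sets near the threshold are the limit of these arrays: weak signal there cannot be told from background.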
